A study of Macaca mulatta with 4 samples.

Results

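The ETS and Krüppel-like factor (KLF) families of transcription factors were followed in the established line RF/6A of the rhesus macaque (Macaca mulatta), which the labels describe as chorioretinal cells and which has served as a model of endothelium. The members were 27 ETS genes, 17 KLF genes and 5 further regulators of blood and vessel development (TAL1, LYL1, LMO2, HHEX and NR2F2), taken as a list of 49 symbols. Of these, 42 had a row among the 21314 rows of the gene table, namely 23 ETS genes, 15 KLF genes and 4 of the other regulators. FEV, SPIB, SPIC, SPDEF, KLF5, KLF9 and TAL1 were paired with no row and were not analysed here. Total RNA was sequenced in 4 libraries, titled Static 1 to 4, from cells bought from a cell bank and kept in medium with 10% heat-inactivated bovine serum at 37 °C and 5% CO2. They form 1 group with no treated or control group, so the comparisons are between genes and between libraries. Nothing in the labels says whether the libraries came from separate cultures, and the SDs therefore describe the spread between these 4 libraries, which may be technical.

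ETS factors bind DNA through a shared winged helix-turn-helix domain that reads a GGA core, and KLF proteins bind GC-rich and CACCC sequences through zinc fingers at their C-terminal end. In endothelium, ERG and FLI1 keep vessel genes such as the cadherin CDH5 switched on, ETV2 starts the vascular programme in the embryo, and KLF2 and KLF4 are induced by blood flow. TAL1 and LMO2 sit in a complex that directs blood and vessel progenitors. Many other family members, among them ELF1, GABPA, KLF6 and KLF13, are found in most tissues.

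Totals were between 20366946 and 20550610 estimated counts per library, and values are counts-per-million (CPM) after scaling by the trimmed mean of M-values (TMM). Library 2 stood apart before any gene was considered. Its ribosomal protein genes took 15.0% of counts against 6.08% to 6.66% in the others, and rows with no symbol took 21.7% against 13.1% to 13.9%. The summed level of 9 epithelial markers, of which 6 were expressed, was 3611 CPM in library 2 and 989 to 1125 CPM elsewhere, with GRHL2 at 0 in every library. KRT18 made up 3487 CPM of that sum in library 2. Library 2 was the highest for 5 of the 6 expressed markers, and CDH1 was lowest there, at 4.56 CPM against 7.01 to 8.45 CPM. Summed mesenchymal markers (9 of 9 expressed) were 43357 CPM against 27476 to 30268 CPM, although library 2 was the lowest for 5 of the 9, among them PDGFRB and DCN. Summed endothelial markers were 6.29 CPM against 6.01 to 8.51 CPM, with ROBO4 at 0. Of these 9 markers 1 was expressed, 2 without library 2 or without library 4, and 3 by mean CPM. Summed blood markers (0 of 10 expressed, GATA1 and CD3E among those at 0) were 3.39 CPM in library 2 and 0.943 to 1.36 CPM in the others. The part of these differences in the values below was not tested. A gene was called expressed when none of the 4 libraries fell under 1 CPM, a level worth 16.2 counts in library 2 and 22.0 to 22.3 counts in the others.

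RF/6A cells expressed a broad set of ETS and KLF genes, but of the vascular class only FLI1 and KLF2. Of the 42 members, 27 (64.3%) were expressed, beside 52.9% of all rows. The share was 64.3% of the 17534 rows that had any count, but 5 of the 42 members had none, so that share is not like for like. The share of all rows is not like for like either, because 6660 of the 21314 rows had no symbol and every member had one. The difference from the background was not tested. Members were put into classes by their known tissue distribution. The vascular class held ERG, FLI1, ETV2, KLF2, TAL1 and LMO2. The broad class held ETS1, ETS2, ELF1, ELF2, ELK1, ELK3, ELK4, ETV3, ETV6, GABPA, ERF and the KLF genes KLF3, KLF6, KLF7, KLF9 to KLF13 and KLF16. Within the list, 17 of the 19 broadly expressed members with a row were expressed and 2 of the 5 vascular members. Leaving out library 2 gave 18 of 19 and again 2 of 5. All 3 members of the PEA3 group were expressed, 1 of 5 members with a row that are typical of blood cells (SPI1, KLF1, LYL1, ELF4 and ETV7), 0 of 3 typical of epithelium (ELF3, ELF5 and EHF), and 4 of 7 others.

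**Figure D1:**
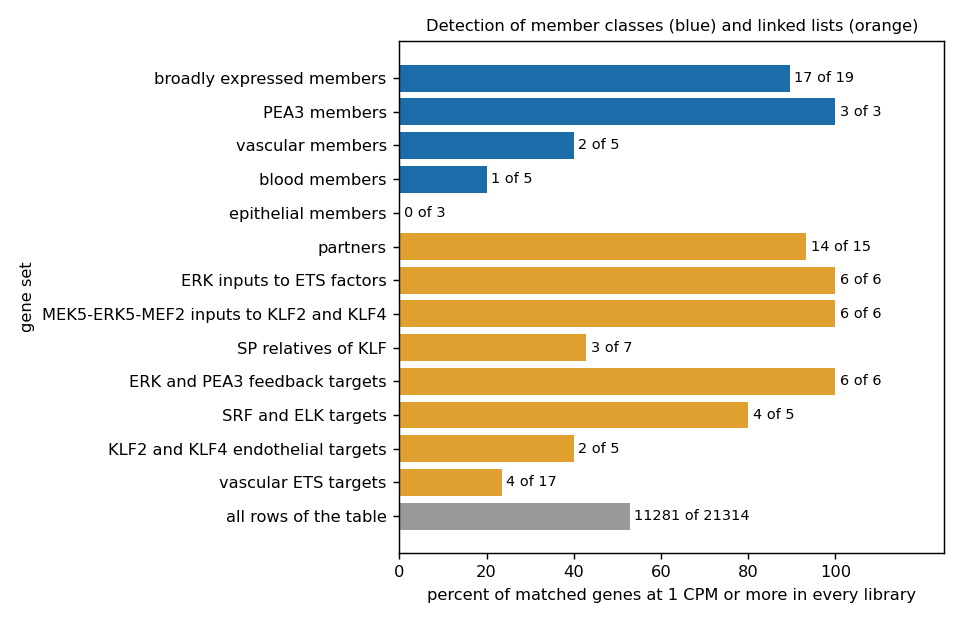
Bars give the percentage of matched genes that reached 1 CPM or more in every library, for member classes (blue), linked gene lists (orange) and all rows of the table (grey), with the counts beside each bar. The broad class reached 17 of 19 and the vascular class 2 of 5, and 4 of 17 vascular ETS targets were expressed.

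Among the vascular ETS genes, FLI1 (ENSMMUG00000003141) was the one expressed. It measured 34.0, 17.8, 39.1 and 30.5 CPM in libraries 1 to 4, with a mean of 30.4 ± 9.06 CPM (SD, n = 4) and 34.5 ± 4.31 CPM without library 2. Every library was far above the threshold, and library 2 was the lowest.

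ERG (ENSMMUG00000010296), the relative of FLI1 that maintains endothelial identity, lay at the threshold. It measured 1.23, 0.493, 1.35 and 0.814 CPM, from 27, 8, 30 and 18 counts. Libraries 1 and 3 were above 1 CPM and libraries 2 and 4 below it. Pooled over the 4 libraries, its exact 95% Poisson interval was 0.801 to 1.25 CPM, which covers counting error only. In bulk RNA, a low level in every cell and a higher level in few cells cannot be told apart.

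ETV2 (ENSMMUG00000018953) was below 1 CPM in every library, at 0.364, 0.493, 0.135 and 0.362 CPM. These values rest on 8, 8, 3 and 8 counts, and the pooled upper Poisson limit was 0.476 CPM.

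KLF2 (ENSMMUG00000028855), the flow-induced factor, measured 5.73, 6.48, 6.78 and 9.77 CPM (mean 7.19 ± 1.77, SD, n = 4). Library 4 was the highest. Library 2 lay within the range of the others with TMM scaling, but was the lowest with plain CPM.

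LMO2 (ENSMMUG00000007633), the adaptor of the TAL1 complex, measured 0.591, 0.987, 0.404 and 0.407 CPM. No library reached the threshold, although library 2 came close to it, and the pooled upper Poisson limit was 0.757 CPM. LYL1, a relative of TAL1, had no count in any library. At a one-sided 95% limit, a count of 0 allows up to about 3 counts, or 0.135 to 0.185 CPM per library, for counting error alone. The pooled upper Poisson limit of LYL1, which is two-sided as for LMO2, was 0.0447 CPM.

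Of the genes known to work with TAL1 and LMO2, LDB1, TCF3, TCF4, TCF12 and GATA2 were expressed and GATA1 was not. LDB1, which holds the complex together, measured 64.5 ± 6.06 CPM (SD, n = 4). The E-protein partners TCF3 and TCF4 measured 59.3 ± 9.34 and 56.7 ± 25.3 CPM, with 72.6 and 19.3 CPM in library 2. TCF12 measured 397 ± 178 CPM, with 133 CPM in library 2. GATA2, a partner in progenitors and endothelium, measured 33.2 ± 2.94 CPM, whereas its erythroid counterpart GATA1 had no count.

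NR2F2 and HHEX, outside both families, were expressed. NR2F2 (ENSMMUG00000005430), a nuclear receptor known for venous identity and also found in mesenchyme, measured 257, 192, 270 and 268 CPM (mean 247 ± 36.9, SD, n = 4), and Dixon's gap test put library 2 apart as low. HHEX, a homeobox factor of early endoderm and blood vessel precursors, measured 8.42, 9.93, 7.19 and 8.68 CPM, with library 2 the highest by a small margin.

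The ETS genes with the 8 highest mean CPM were ETS1, ERF, ELK3, ETV5, ELF1, ELF2, ELK1 and ELF4. CPM is not divided by transcript length, and no transcript lengths were used here, so this order is one of counts and not of molecules. ETS1 (ENSMMUG00000020706), found in lymphoid, endothelial and mesenchymal cells, measured 239, 51.4, 261 and 222 CPM. Its mean of 193 ± 96.0 CPM (SD, n = 4) became 241 ± 19.9 CPM without library 2.

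ERF, a repressor that ERK phosphorylation moves out of the nucleus, measured 115, 152, 113 and 120 CPM. Unlike ETS1, it was highest in library 2, although with plain CPM that library became its lowest.

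The ternary complex factors ELK1, ELK3 and ELK4 act with serum response factor (SRF) on genes that growth factors switch on. ELK3 measured 131, 47.9, 115 and 126 CPM, and ELK1 measured 70.7, 15.7, 63.0 and 84.5 CPM. ELK4 measured 29.98, 1.85, 30.6 and 19.1 CPM, so that library 2 was 16.2-fold below the median of the other 3. For all 3 genes library 2 lay below every other library. SRF itself measured 42.5 ± 7.60 CPM, with 31.3 CPM in library 2.

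ELF1, ELF2 and ELF4 form a group of activators known best from blood cells, of which ELF1 and ELF2 are found widely. ELF1 measured 90.6, 31.3, 90.6 and 89.3 CPM, with a spread of only 0.766 CPM (SD) among libraries 1, 3 and 4. ELF2 measured 72.8, 42.7, 75.5 and 69.5 CPM. ELF4 measured 52.5, 43.0, 55.9 and 52.2 CPM and was the one expressed gene in the class typical of blood.

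The PEA3 group, ETV1, ETV4 and ETV5, lies downstream of fibroblast growth factor and ERK signalling. ETV5 measured 82.9, 64.2, 114 and 89.5 CPM. ETV4 measured 25.8, 45.2, 22.8 and 26.6 CPM, highest in library 2, while ETV1 measured 29.4, 9.13, 35.3 and 29.6 CPM, lowest in library 2. The 3 genes of the group thus differed in how library 2 compared with the rest.

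The remaining expressed ETS genes were ETS2, ETV3, ETV6 and GABPA. ETS2, the closest relative of ETS1, measured 30.7, 22.0, 31.2 and 31.0 CPM, and the repressor ETV3 measured 38.1, 17.0, 38.3 and 37.7 CPM. In both, Dixon's test put library 2 apart as low. The repressor ETV6 averaged 22.1 ± 10.5 CPM (SD, n = 4), with 6.54 CPM in library 2. GABPA, which pairs with a GABPB subunit at promoters of mitochondrial and housekeeping genes, averaged 21.2 ± 11.5 CPM, with 4.32 CPM in library 2, and its partners GABPB1 and GABPB2 averaged 43.3 ± 10.4 and 5.90 ± 1.30 CPM.

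Of the ETS genes typical of epithelium or blood that had a row, those other than ELF4 were below 1 CPM in every library. The epithelial factors ELF5 and EHF had no count in any library, and ELF3 averaged 0.274 ± 0.167 CPM (SD, n = 4). SPI1, or PU.1, the myeloid and B cell factor, had 3 counts in library 4 and none elsewhere. ETV7 had 1, 4, 1 and 1 counts.

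**Figure D2:**
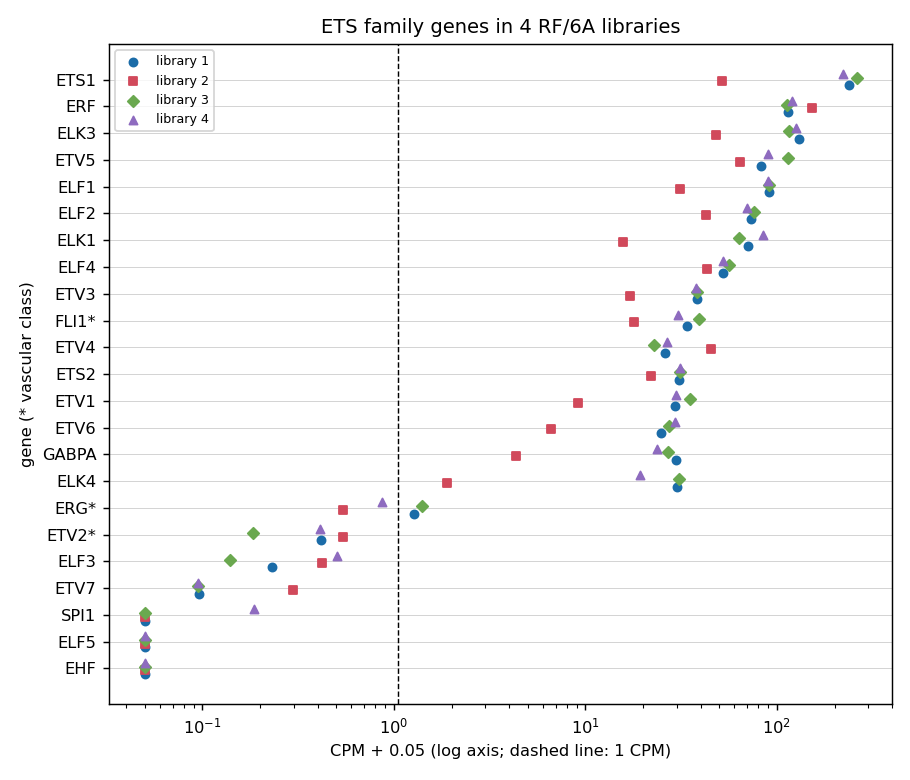
Each point is the level of an ETS gene in 1 of the 4 libraries, in CPM + 0.05 on a log axis, with a dashed line at 1 CPM and an asterisk on members of the vascular class. FLI1 lies right of the line in all 4 libraries, ERG straddles it and ETV2 lies left of it, and library 2 is the leftmost point for most expressed genes but not for ETV4 or, with the TMM scaling shown (plain CPM turned it), for ERF.

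The KLF genes with the 8 highest mean CPM were KLF13, KLF10, KLF6, KLF4, KLF3, KLF11, KLF8 and KLF2. KLF13 (ENSMMUG00000049198), a widely found factor studied in T cells and heart, measured 277, 38.9, 310 and 257 CPM. The mean of 221 ± 123 CPM (SD, n = 4) became 282 ± 26.6 CPM without library 2, which was 7.12-fold below the median of the others.

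KLF10 and KLF11 are early response genes of transforming growth factor beta. KLF10 measured 118, 33.3, 111 and 108 CPM, and Dixon's test put library 2 apart. KLF11 measured 20.4, 15.6, 18.6 and 19.6 CPM, a narrower spread with library 2 again the lowest.

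KLF6 is induced by injury and serum, and KLF4 is a reprogramming factor that flow induces in endothelium. KLF6 measured 51.9, 22.9, 49.0 and 42.2 CPM. KLF4 (ENSMMUG00000006088) measured 30.4, 27.2, 30.7 and 40.2 CPM, with a mean of 32.1 ± 5.64 CPM (SD, n = 4) and library 4 the highest, as for KLF2.

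KLF3, KLF8 and KLF12 are repressors that recruit the C-terminal binding proteins CTBP1 and CTBP2, and both co-repressors were expressed, at 93.8 ± 40.3 and 124 ± 10.3 CPM (SD, n = 4). CTBP1 was high in library 2, at 154 CPM against 72.1 to 75.9 CPM in the others, and CTBP2 measured 111 CPM there. KLF3 measured 23.2, 5.49, 24.2 and 22.0 CPM and KLF8 measured 14.2, 6.66, 10.8 and 9.50 CPM. KLF12 measured 1.18, 0.247, 1.66 and 1.63 CPM and missed the threshold through library 2 alone, where it had 4 counts.

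KLF7, a factor of neurons and fat cells that is also found widely, measured 8.19, 1.23, 10.6 and 6.83 CPM. KLF16 was the other broadly expressed member not called, at 1.36, 0.925, 0.719 and 0.904 CPM, with library 1 alone above the threshold. KLF15, a glucocorticoid-induced metabolic factor, averaged 0.361 ± 0.291 CPM (SD, n = 4), and the erythroid factor KLF1 averaged 0.118 ± 0.103 CPM. KLF14 and KLF17 had no count.

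**Figure D3:**
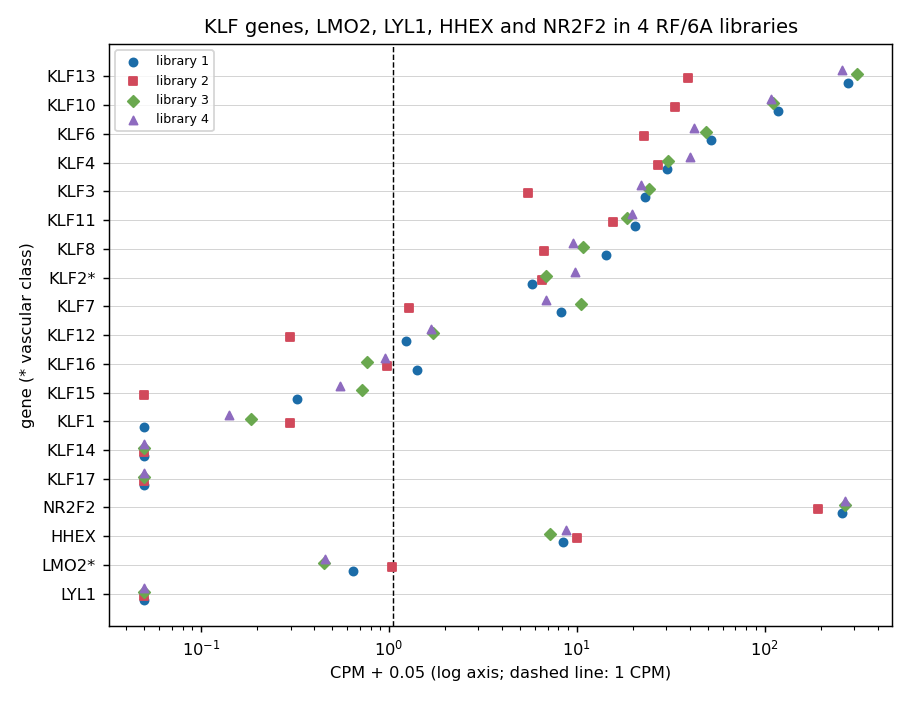
Each point is the level of a KLF gene, NR2F2, HHEX, LMO2 or LYL1 in 1 of the 4 libraries, in CPM + 0.05 on a log axis, with a dashed line at 1 CPM and an asterisk on members of the vascular class. KLF2 lies right of the line in every library, with library 2 inside its range under the TMM scaling shown (plain CPM made it the lowest). KLF13, KLF10, KLF3 and KLF7 show library 2 far to the left of the other 3.

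ETS1 with FLI1, and ETS2 with ERG, are neighbours in the genome. In the RefSeq gene table of the rhesus assembly T2T-MMU8v2.0, used for names and gene order only, 0 protein-coding genes lie between the members of either pair. In the ETS1 and FLI1 pair both genes were expressed, and in the ETS2 and ERG pair ETS2 was expressed (22.0 to 31.2 CPM) and ERG was not (0.493 to 1.35 CPM).

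Ratios of counts within a library were taken for 5 pairs of relatives. Such a ratio includes the lengths of both transcripts. These cancel across libraries only if each gene's transcripts are used and recovered alike in every library, which was not checked. FLI1 counts were 14.2%, 34.7%, 15.0% and 13.8% of ETS1 counts in libraries 1 to 4, so library 2 stood apart from 3 libraries that were nearly equal. On the log2(CPM + 0.5) scale the ratio was -2.47 ± 0.64 (SD, n = 4), and -2.79 ± 0.06 without library 2. ERG counts were 0.514%, 0.960%, 0.516% and 0.367% of ETS1 counts, again highest in library 2.

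KLF2 counts were 18.9%, 23.8%, 22.1% and 24.3% of KLF4 counts. This ratio, -2.10 ± 0.15 on the log2 scale (SD, n = 4), had the smallest spread of the 5 and did not set library 2 apart. Against KLF6, the KLF2 ratio was -2.41 ± 0.61, from 11.0% in library 1 to 28.3% in library 2. ETV2 to ETV6 was -4.57 ± 1.19, with 7.55% in library 2 and at most 1.46% in the others. In each of the 5 pairs the first gene had fewer counts in 4 of 4 libraries, and the exact sign-flip permutation test (two-sided) gave p = 0.125, with a Benjamini-Hochberg adjusted p = 0.125 over the 5 pairs. That is the smallest p that 4 libraries can give, so no pair could pass a threshold of 0.05. Any pair with the same sign in 4 of 4 libraries gives this value. The test is of equal counts, which depend on the lengths of both transcripts, so no conclusion on molecules is drawn from it.

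**Figure D4:**
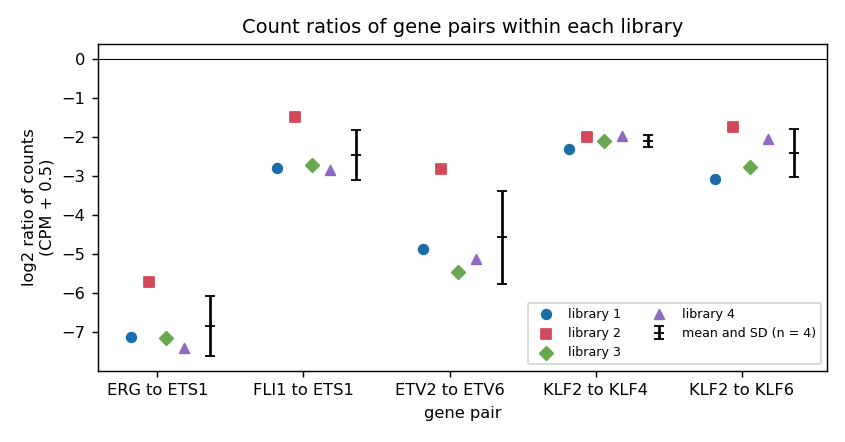
Coloured points give, for each library, the log2 ratio of counts (CPM + 0.5) of the first to the second gene of a pair, and the black marks beside them show mean ± SD (n = 4). The KLF2 to KLF4 ratio varies little, around -2.10, while library 2 lies above the other 3 for FLI1 to ETS1, ERG to ETS1 and ETV2 to ETV6.

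As classes, the broadly expressed members had a median of 4.98 ± 0.57 log2(CPM + 0.5) (SD, n = 4) and the vascular members 0.66 ± 0.22, beside 1.85 ± 0.21 over all rows and 3.13 ± 0.22 over rows that had any count. The vascular median is that of ERG in libraries 1, 3 and 4 and of LMO2 in library 2. The within-library difference was 4.32 ± 0.55 log2 units, 4.20 ± 0.51 with ETS1 left out of the broad class and 4.61 ± 0.26 without library 2, and was positive in 4 of 4 libraries. It fell to 1.24 ± 0.34 when only genes kept by a filter on low counts entered, which left FLI1 and KLF2 to represent the vascular class. These medians are of counts, not corrected for length, and carry no test because the members were chosen with earlier results known. The broad class was picked for presence in most tissues, so its higher level and share expressed were partly built into that choice.

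Library 2 had lower levels for most expressed members, after scaling that brought its median over all genes close to that of the others. Of the 28 members with a mean of 1 CPM or more, library 2 was the lowest for 24, beside 48.0% of the 12453 genes at that level, and the highest for 3 (ERF, ETV4 and HHEX), beside 43.8%. It was at or below 0.5 times the 4-library median for 14 of the 28 members, beside 25.3% of genes. By family these were 9 of 16 ETS genes and 5 of 10 KLF genes, and by class 13 of 18 broadly expressed members. Expressed as a log2 ratio to the 4-library median, library 2 had a median of -1.05 over the 28 members and -0.04 over all genes. The members were not alone in this. At the same level, library 2 was the lowest for 4 of 4 SP genes, 6 of 6 ERK and PEA3 targets and 11 of 14 partners. It was the lowest for 4 of 6 genes in each of the 2 upstream lists, ERK and MEK5. Among targets it was the lowest for 2 of 4 of SRF and ELK, 2 of 6 vascular ETS and 0 of 2 of KLF2 and KLF4.

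The members differed widely in this ratio. ELK4 was the lowest at -3.41, followed by KLF13 (-2.76), GABPA (-2.42), KLF7 (-2.21), ETS1 (-2.15) and ELK1 (-2.05). KLF2 (-0.03), KLF4 (-0.16), KLF11 (-0.28) and ELF4 (-0.28) were close to the all-gene median, and ERF (0.37) and ETV4 (0.77) were above it. With plain CPM, which shifts the all-gene median of library 2 to -0.42, it was lowest for 27 of 29 members, ERF turned from highest to lowest, HHEX lay between the other libraries, and ETV4 was the 1 gene still highest in library 2.

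Dixon's test put library 2 apart for 6 of the 28 members, all low (ELF1, ETV3, ETS2, KLF10, KLF3 and NR2F2), beside 33.1% of genes apart in either direction, 11.2% low and 21.8% high. On the log2 scale, where a low library weighs more, it was apart and low for 13 of 28, beside 21.5% of genes. Libraries 1, 3 and 4 were apart for 0 of the 28 members and for 0.779% of genes. Among those 3 libraries the 27 expressed members had a median coefficient of variation of 8.45%, near the 8.24% of all 11281 expressed genes, against 32.0% and 32.7% with library 2 included.

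**Figure D5:**
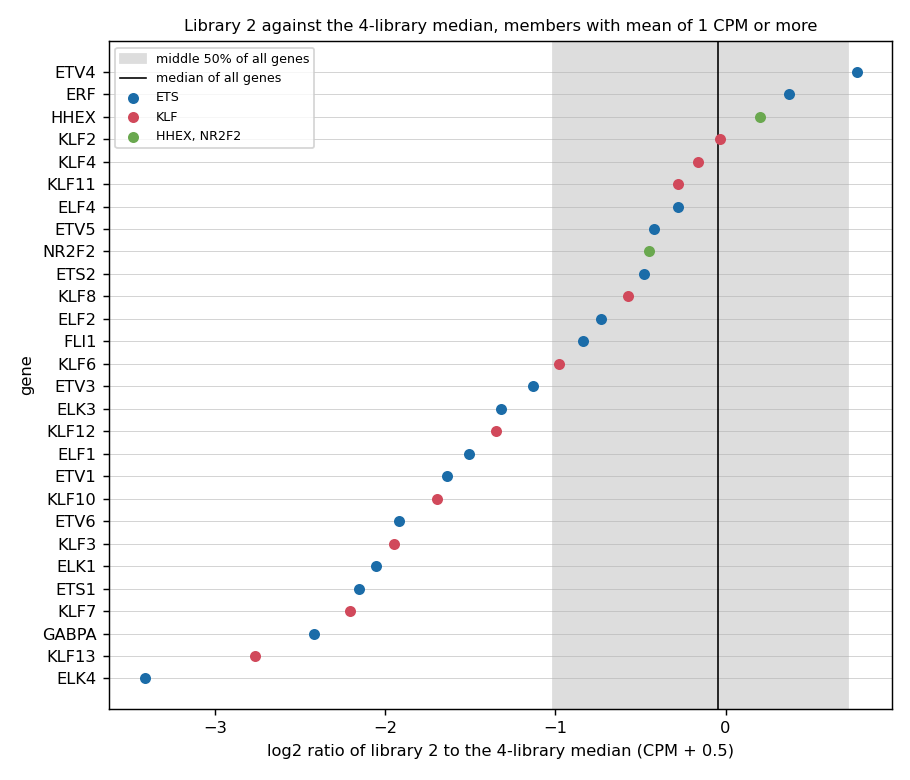
Points give library 2 relative to the 4-library median, as a log2 ratio of CPM + 0.5, for the 28 members with a mean of 1 CPM or more, coloured by family, with the median (line) and middle 50% (grey band, -1.01 to 0.72) of 12453 genes. Members spread from 0.77 for ETV4 to -3.41 for ELK4, and 14 lie left of the band.

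Genes that act upstream were expressed throughout. All 6 kinases of the ERK cascade listed were expressed, with MAP2K2 at 325 ± 265 CPM (SD, n = 4, and 722 CPM in library 2) and MAP2K1 at 92.3 ± 7.76 CPM. All 6 genes of the MEK5, ERK5 and MEF2 route that induces KLF2 and KLF4 were expressed, led by MEF2A at 151 ± 59.1 CPM, MAP2K5 at 79.2 ± 7.54 CPM and MEF2D at 50.2 ± 15.1 CPM. ERK5 itself (MAPK7) measured 9.64, 9.56, 8.99 and 9.95 CPM, almost the same in the 4 libraries. The route as a whole was less even, for library 2 was the lowest for 4 of its 6 genes and the highest for 1. Library 2 was at or below 0.5 times the 4-library median for 3 of them, among these MEF2A (65.4 CPM). Of 15 partners, 14 were expressed, including SIN3A at 144 ± 39.1 CPM and the acetyltransferase EP300 at 86.1 ± 49.8 CPM, with 12.5 CPM in library 2. These shares stand beside 52.9% of all rows.

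Counts of expressed targets stand beside 52.9% of all rows, and differences between the lists were not tested. They cover listed genes with a row, 6 of 9 for ERK and the PEA3 group and 5 of 9 for SRF and ELK. For KLF2 and KLF4 these were 5 of 7, and for the vascular ETS targets 17 of 22. DUSP4, DUSP6, PHLDA1 and EGR1 were among those without a row. Feedback and other target genes of ERK and the PEA3 group were expressed in 6 of 6. CCND1, the cyclin of the early cell cycle, measured 471 ± 261 CPM (SD, n = 4, and 80.7 CPM in library 2). SPRED1 measured 108 ± 30.2 CPM and SPRY1 measured 35.4 ± 4.16 CPM. Of 5 SRF and ELK targets, 4 were expressed, with JUNB at 20.2 ± 8.28 CPM, FOS at 16.3 ± 2.38 CPM and EGR2 at 6.95 ± 0.831 CPM. Of 5 KLF2 and KLF4 targets, 2 were, the urea cycle enzyme gene ASS1 at 832 ± 307 CPM and the peptide hormone gene ADM at 119 ± 22.9 CPM, both also found outside endothelium. NOS3, the endothelial nitric oxide synthase, averaged 0.407 ± 0.196 CPM, and THBD had no count. Of 17 vascular ETS targets, 4 were expressed, 5 without library 2 and 6 by mean CPM, and 10 were below 1 CPM in every library. The 4 were the receptor gene FLT1 (90.8 ± 49.1 CPM, and 19.7 CPM in library 2), the co-receptor gene ENG (50.02 ± 8.61 CPM), EGFL7 (10.7 ± 6.37 CPM, and 19.9 CPM in library 2) and PECAM1 (2.49 ± 0.636 CPM).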

How the data were processed

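For each of 4 libraries the authors deposited estimated counts by rhesus Ensembl gene identifier, already in whole numbers and not divided by transcript length. Per the submitters' processing notes, the tools were Salmon and DESeq2, with no version or role. Genome build, annotation and strandedness are not given in the sources used. Salmon divides a read that several transcripts could explain, so relatives and overlapping genes carry an assignment error that the counting intervals leave out.

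Symbols came from a table of Ensembl identifiers, which named 14654 of 21314 rows. Of the 161 genes listed here, 135 (83.9%) matched a row. Counts were scaled by TMM in edgeR 4.0.16 under R 4.3.3. DESeq2 1.42.0 size factors and plain CPM were alternatives. Members, classes, lists and tests were chosen with earlier results of these data known, and no list is independent support. Named genes were the vascular members, the 8 highest ETS and KLF genes, the other 5 regulators, members with a library apart by Dixon's 95% gap test (about 1 in 20 by chance) and the 3 highest of each linked list, of which some are not reported here. Other members and MAPK7, SRF, the partners of TAL1, LMO2 and GABPA, CTBP1, CTBP2, EP300, NOS3, PECAM1, PDGFRB, DCN and CDH1 were named after their values were seen. Pooled Poisson limits are exact, 95%, two-sided. No per-length values were computed. The code was tested on simulated libraries.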

Additional observations from a re-analysis of the deposited data

Results flagged for a closer look

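Of 94 values given to Dixon's gap test, 26 had an outlying library, whereas about 1 in 20 would by chance. Among all genes with a mean of 1 CPM or more, however, library 2 was apart for 33.1% and another library for 0.779%. The outlying library was library 2 for 23 of the 26 values (12 low, 11 high), and since these share that library they are not independent.

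Among members, library 2 was low for ELF1 (31.3 CPM), ETV3 (17.0), ETS2 (22.0), KLF10 (33.3), KLF3 (5.49) and NR2F2 (192), and high for ETV7 (0.247 CPM, from 4 counts). Library 4 held all counts of SPI1 (0.136 CPM). The median log2(CPM + 0.5) of library 2 was low for ETS members (4.02), all members (2.83), broadly expressed members (4.13) and that class without ETS1 (4.08). Its log2 ratios of ERG to ETS1 (-5.71) and of FLI1 to ETS1 (-1.50) were high.

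In the linked lists, library 2 was low for CCND1 (80.7 CPM) and SP3 (9.75). It was high for ASS1 (1289 CPM), MAP2K2 (722), MAP2K5 (90.4), COL1A1 (16445), VIM (10605), KRT18 (3487), KRT19 (96.7) and the blood marker MPO (1.85). Library 1 was low for FOS (12.7 CPM), and library 4 was high for the monocyte marker CD14 (0.769 CPM).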

How the results depend on the processing

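Counts of expressed ETS, KLF, vascular and broad members and of linked genes pooled stayed within 1.5 times under DESeq2 size factors, plain CPM, other thresholds, filterByExpr and each left-out replicate. The filterByExpr count could not differ, because it was taken among genes already called expressed, whose counts lie above its minimum. Leaving out a replicate could hardly lower a count that requires every library. For KLF members the count was 8 with plain CPM and 10 without replicate 2. The broad minus vascular difference was 3.21 with means in place of medians and 1.24 with filterByExpr, which removes low-count members. Library 2 was apart for 13 members on the log2 scale, 7 with DESeq2 size factors (ERF and ETV4 high, NR2F2 no longer apart) and 9 with plain CPM. All pair ratios kept their sign. Of 252 recomputed member means, 248 moved by less than 1 SD, and the 4 others were without replicate 2. Because that SD includes the library left out, leaving out a replicate could hardly move a mean so far, and the count shows little about robustness. ETS1, for example, went from 193 to 260 CPM without replicate 2, with scaling redone, and still counted as within 1 SD. Alternatives per coding length were not run. No paired analysis was possible because there is 1 group. Genes under about 20 counts are limited by depth.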

Other observations

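The SP genes, the closest relatives of the KLF family, were expressed in 3 of 7 (42.9%), beside 52.9% of all rows, and in 4 of 7 without library 2 or by mean CPM. SP3 measured 102, 9.75, 104 and 94.97 CPM in libraries 1 to 4, SP1 measured 78.3, 19.7, 78.2 and 63.8 CPM, and SP2 measured 29.2, 11.4, 29.9 and 24.7 CPM, each lowest in library 2. SP8 and SP9 had no count.

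SP4 was named after its values were seen. It had 30, 0, 183 and 372 counts (1.36, 0, 8.22 and 16.8 CPM), so that libraries 1, 3 and 4, which were close for most genes, differed widely. The cause was not tested.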
